A study of Macaca mulatta with 2 samples.

Results

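The 43 genes described here encode the enzymes, activator proteins and a receptor that make, modify, break down or sense sphingolipids, among them the galactolipids of myelin. They were taken from the deposited table by gene symbol, from a list chosen with earlier results of these data known. All 43 were among the 16684 genes listed there. The table holds bulk RNA-seq of untreated, wild-type optic nerves of the rhesus macaque, *Macaca mulatta*, a single condition with 2 libraries called Rep1 and Rep2. As to the source, the study's methods name postmortem nerves of a male aged 12 years, while the series description speaks of 2 macaques, so the libraries stand for nerves from either 1 or 2 animals. All values are TPM, read counts divided by gene length and scaled to a sum of 1000000 in each library, so that levels of different genes can be set side by side. With the same condition in both libraries there was no treatment to test, and since a sign test over 2 libraries has a smallest exact two-sided p of 0.5, differences between Rep1 and Rep2 are given as replicate spread.

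Sphingolipids are built on a backbone that serine palmitoyltransferase forms from serine and a fatty acid, and which ceramide synthases and a desaturase turn into ceramide. Ceramide is then capped with phosphocholine to give sphingomyelin, with glucose to give the precursor of gangliosides, or with galactose to give galactosylceramide, whose sulfated form is sulfatide. Galactosylceramide and sulfatide are hallmark lipids of myelin, the sheath that oligodendrocytes wrap around the axons of the optic nerve, and inherited loss of the lysosomal enzymes that break them down causes Krabbe disease and metachromatic leukodystrophy.

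The stretches of genome directly before the annotated starts of the 3 galactolipid enzymes are shown because these genes shared a direction between the libraries, and that of *NEU1* because it alone among the 43 held the searched lysosomal motif. Each stretch runs 5′ to 3′ over the 250 bases before the gene start in Mmul_10, annotated by RefSeq. *UGT8* lies on the plus strand at chr5:112915922-112916171, *FA2H* on the minus strand at chr20:61739584-61739833, *GAL3ST1* on the plus strand at chr10:20970960-20971209 and *NEU1* on the plus strand at chr4:137636532-137636781. Capitals mark TCACGTG, the core of the element bound by the lysosomal regulator TFEB.
UGT8: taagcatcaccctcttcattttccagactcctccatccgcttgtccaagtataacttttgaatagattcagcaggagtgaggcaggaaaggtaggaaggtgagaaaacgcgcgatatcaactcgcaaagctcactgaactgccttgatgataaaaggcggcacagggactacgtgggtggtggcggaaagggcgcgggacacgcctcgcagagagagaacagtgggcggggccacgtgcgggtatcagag
FA2H: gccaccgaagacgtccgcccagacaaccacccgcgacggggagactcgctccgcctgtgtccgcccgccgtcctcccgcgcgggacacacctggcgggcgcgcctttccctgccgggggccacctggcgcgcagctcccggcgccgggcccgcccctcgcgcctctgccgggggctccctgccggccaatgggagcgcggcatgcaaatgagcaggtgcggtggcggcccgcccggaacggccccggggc
GAL3ST1: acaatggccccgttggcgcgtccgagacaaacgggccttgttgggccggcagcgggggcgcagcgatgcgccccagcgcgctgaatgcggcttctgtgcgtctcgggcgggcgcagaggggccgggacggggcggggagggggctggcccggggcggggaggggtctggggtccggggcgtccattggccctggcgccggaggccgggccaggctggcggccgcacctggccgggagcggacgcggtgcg
NEU1: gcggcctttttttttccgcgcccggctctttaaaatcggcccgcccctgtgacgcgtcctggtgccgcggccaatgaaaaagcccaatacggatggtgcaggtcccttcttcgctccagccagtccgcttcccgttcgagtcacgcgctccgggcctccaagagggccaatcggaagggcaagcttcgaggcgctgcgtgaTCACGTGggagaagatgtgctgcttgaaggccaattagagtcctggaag

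Windows from 250 bases before to 50 bases after the gene start were searched on both strands in all 43 genes. TCACGTG was found in the window of *NEU1*, where it began 49 bases before the start, which makes 1 of the 8 lysosomal genes and 1 of the 43, against 4.24% of the 16267 windows of listed protein-coding genes. The letters ACAAAG, which SOX family factors recognise, lay in 6 of the 43 windows (14.0%) and in 13.8% of all windows, but in none of the 3 galactolipid windows. On either strand the motifs can share at most 1 letter, and a match is only a description of the sequence. G and C made up 55.0% of the window of *UGT8*, 77.3% of that of *FA2H* and 79.7% of that of *GAL3ST1*, with a median of 64.7% over the 43 genes and 60.3% over all windows.

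The libraries differed strongly in depth and make-up, and this touches every level below. For each gene, Rep1 and Rep2 stand in the proportion of whole read numbers times one fixed factor, from which the relative depth could be worked out, and 1 read counted for as much TPM in Rep1 as 17.2 reads in Rep2. The smallest whole read numbers that fit each gene are given as lower bounds, they existed for all 37 members above 0 in both libraries, and over all genes they summed to 651121 in Rep1 and 8858237 in Rep2. A bound can lie far below the true read number, so bounds do not rank genes by their reads. For *SGPL1*, at 24.8 TPM in Rep1, the bound there was 1 read. Among the markers of the tissue, all 11 of oligodendrocytes were lower in Rep1, where they summed to 46114 TPM against 212895 TPM in Rep2. Of the 8 astrocyte markers, 7 were lower in Rep1 (1148 against 7342 TPM), whereas 7 of 8 photoreceptor markers were higher there (3322 against 10.2 TPM), with *CRX* listed at 0 in Rep2. The 6 neuronal markers summed to 1907 TPM in Rep1 against 39.5 TPM in Rep2, with 3 of them higher in Rep1. All 6 meningeal fibroblast markers were lower in Rep1 (1618 against 15164 TPM), as were 7 of 8 microglial (224 against 493 TPM) and 7 of 8 vascular markers (101 against 329 TPM), with 1 of each of these last lists at 0 in Rep1. Of 10 housekeeping genes, 7 were higher in Rep1. In bulk tissue, fewer cells of a type cannot be told apart from less RNA per cell, and the part of this difference in make-up in the results below was not tested.

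As a group the 43 genes were expressed above the middle of the genome in both libraries together, with a median percentile of 68.3 for the mean TPM among the 14693 genes above 0 in at least 1 library. They summed to 2008 TPM in Rep1 and 2831 TPM in Rep2, or 0.201% and 0.283% of each library. In Rep2 all 43 were above 0, while 12.5% of all listed genes were at 0. There 33 members reached 10 TPM, beside 7739 of the 16684 listed genes, and 6 members reached 100 TPM. In Rep1, 14 members reached 10 TPM and 5 reached 100 TPM. For Rep1 and for 100 TPM the matching counts over all genes were not made. Listed at 0 in Rep1 were 6 members, which is 14.0% of them beside 38.5% of all listed genes. The 6 were *CERS1*, *DEGS2*, *ELOVL7*, *B4GALNT1*, *ASAH2* and *SGPP1*, and none of them stood above 7.57 TPM in Rep2. A value of 0 in Rep1 is no sign of absence, since from 26.5% (*SGPP1*) to 89.0% (*ASAH2*) of the 200 genes nearest to each in Rep2 level were also listed at 0 there. *NPC1* and *GAA*, lysosomal genes that most cells use, were likewise listed at 0 in Rep1 with 26.7 and 18.2 TPM in Rep2.

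**Figure D1:**
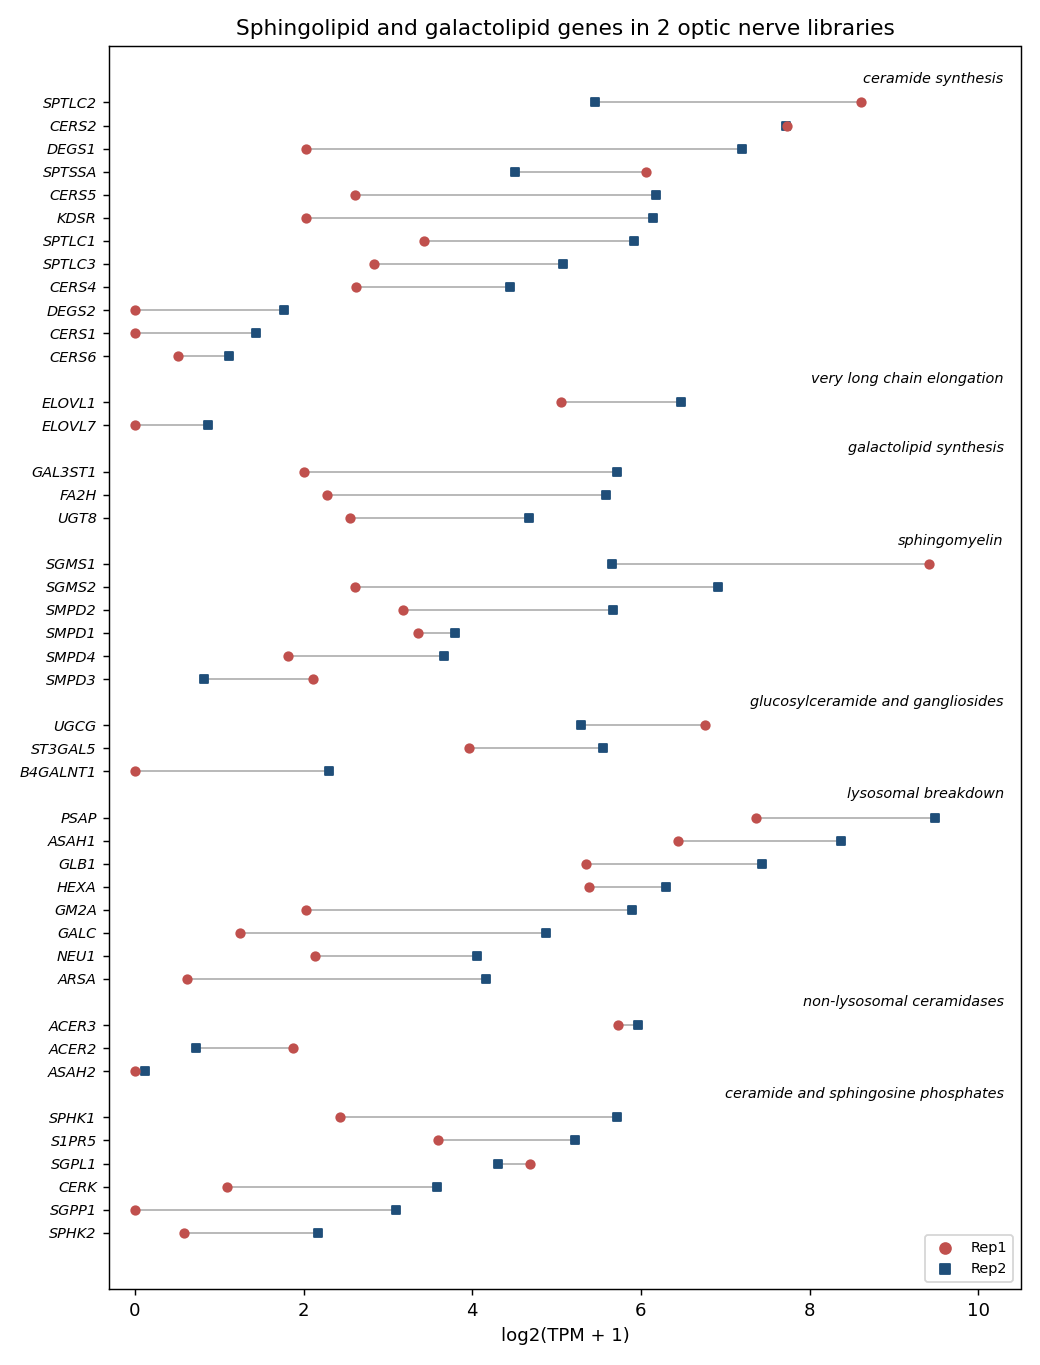
Level of each of the 43 genes, as log2(TPM + 1) on the horizontal axis, in Rep1 (red circles) and Rep2 (blue squares), grouped by role and joined by a grey line. As deposited, *SGMS1* and *SPTLC2* stand far to the right in Rep1, at 679 and 388 TPM, *CERS2* has nearly the same level in both libraries, and 35 of the 43 genes lie further right in Rep2.

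Of the 43 genes, 29 were at least 2-fold lower in Rep1 on the log2(TPM + 1) scale, a share of 67.4% beside 51.3% of the 14693 genes, and 6 were at least 2-fold higher, a share of 14.0% beside 14.8%. Their median difference, Rep1 minus Rep2, was -1.84, against -1.07 for all genes above 0 in at least 1 library. The shares of 51.3% and 14.8% are also those to set beside the as-deposited counts by role and list below. Rep1 as a whole was shifted by -1.19 on the log2 scale, the median ratio of genes above 0 in both libraries. After this shift was removed, 19 members were at least 2-fold lower in Rep1 (33.8% of all genes) and 8 at least 2-fold higher (23.7% of all genes), and the median difference was -0.92 against -0.38 for all genes. When Rep1 was instead scaled up 5.52-fold to the median of the oligodendrocyte markers, 14 were lower (22.8% of all genes), 12 were higher (37.5% of all genes) and the median became 0.12, against 0.14 for all genes. As deposited, 8 genes were higher in Rep1 by any amount, namely *SPTLC2*, *SPTSSA*, *CERS2*, *SGMS1*, *SMPD3*, *UGCG*, *ACER2* and *SGPL1*, and both scalings raise Rep1, so that these could not turn under them. After the median of ratios 11 members were higher in Rep1 by any amount, and 23 were after scaling to the oligodendrocyte markers. Over the 14693 genes, 3547 were higher in Rep1 by any amount as deposited. This rose to 5175 after the median of ratios and to 7663 after scaling to the oligodendrocyte markers.

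**Figure D2:**
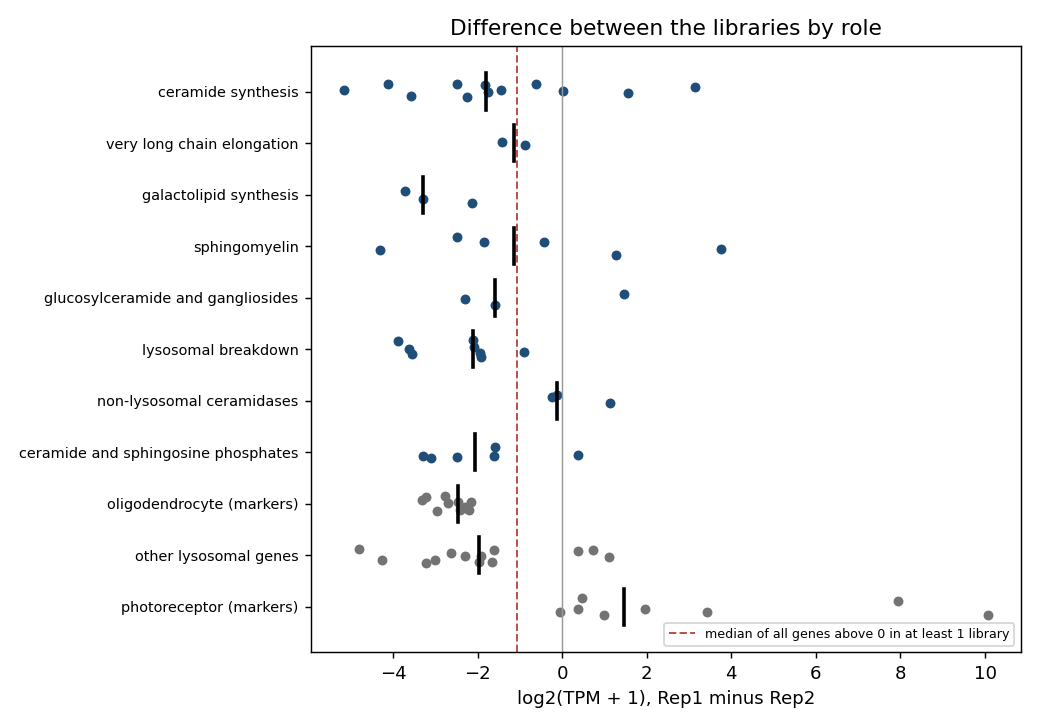
Difference between the libraries, log2(TPM + 1) in Rep1 minus Rep2 on the horizontal axis as deposited, for the members of each role (blue) and for the oligodendrocyte, other lysosomal and photoreceptor lists (grey). Black bars are list medians and the dashed red line is the median of all genes, -1.07. The 3 galactolipid genes and the 8 lysosomal genes lie wholly below 0, whereas under scaling to the oligodendrocyte list *UGT8* and 5 of the 8 lysosomal genes come to lie above it.

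Galactolipid synthesis was carried by 3 genes, all of which were detected in both libraries at moderate levels and were lower in Rep1. *UGT8*, the enzyme that adds galactose to ceramide, lies on chromosome 5 from 112916172 to 113001253, on the plus strand. It stood at 4.84 TPM in Rep1 and at 24.5 TPM in Rep2, on at least 12 and 1043 reads, with a mean of 14.7 ± 13.9 TPM (SD, n = 2 libraries) at percentile 58.1. *FA2H*, which hydroxylates the fatty acids found in many myelin galactolipids, was at 3.86 TPM in Rep1 and at 46.9 TPM in Rep2, with a mean of 25.4 ± 30.4 TPM (SD, n = 2), on chromosome 20 from 61676099 to 61739583. *GAL3ST1*, the sulfotransferase that turns galactosylceramide into sulfatide, was at 3.01 TPM and 51.8 TPM, with a mean of 27.4 ± 34.5 TPM (SD, n = 2), on chromosome 10 from 20971210 to 20991557. Rep2 thus exceeded Rep1 5.06-fold for *UGT8*, 12.2-fold for *FA2H* and 17.2-fold for *GAL3ST1*, and the value of *GAL3ST1* there rested on at least 2 reads and that of *FA2H* on at least 6.

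The log2 differences of *UGT8*, *FA2H* and *GAL3ST1* were -2.13, -3.30 and -3.72. Those of the 11 oligodendrocyte markers ran from -3.32 to -2.17, so *UGT8* was just above this range, *FA2H* inside it and *GAL3ST1* below it. After the median of ratios the 3 genes were still lower in Rep1, by -1.05, -2.23 and -2.67, but with Rep1 scaled to the oligodendrocyte markers *UGT8* was at 0.12, *FA2H* at -1.10 and *GAL3ST1* at -1.58. Within a library, *UGT8* amounted to 0.111 TPM per 1000 TPM of the myelin gene *MBP* in Rep1 and 0.123 TPM in Rep2. For *FA2H* these ratios were 0.0882 and 0.235, and for *GAL3ST1* they were 0.0689 and 0.259. The order of the 3 genes was *UGT8*, *FA2H*, *GAL3ST1* from the top in Rep1 and the reverse in Rep2, and on the mean *FA2H* differed from *UGT8* by 0.197 and *GAL3ST1* by 0.150 SDs of a single library. This SD was read off how far the 200 genes closest in mean log2(TPM + 1) over the libraries differed from Rep1 to Rep2, on the same scale.

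Ceramide synthases were dominated by *CERS2* in both libraries. *CERS2*, which makes the very long chain ceramides abundant in myelin, stood at 212 TPM in Rep1 and at 210.5 TPM in Rep2, a mean of 211 ± 1.40 TPM (SD, n = 2) at percentile 95.1, on chromosome 1 from 100153513 to 100163028. This amounted to 95.2% of the summed TPM of the 5 ceramide synthase genes in Rep1 and 68.9% in Rep2. *CERS5* followed in Rep2 with 71.4 TPM (23.4% of the family) but had 5.09 TPM in Rep1. *CERS4* was at 5.18 TPM in Rep1 and at 20.8 TPM in Rep2, *CERS6* at 0.421 and 1.17 TPM, and *CERS1*, the form best known from neurons, was listed at 0 in Rep1 and reached 1.71 TPM in Rep2. On the mean *CERS2* exceeded *CERS5* by 1.97, *CERS4* by 2.42 and *CERS6* by 4.91 SDs of a single library, and it was above each of them in both libraries. *CERS5* and *CERS4* were 0.499 SDs apart and changed places between the libraries. The near equality of *CERS2* depended on the scaling, since its log2 difference was 0.01 as deposited and -0.16 without the 10 most abundant genes, but 1.20 after the median of ratios and 2.47 after scaling to the oligodendrocyte markers. The level of *CERS1* is uncertain for another reason, because 40.2% of its transcript lay in runs of at least 50 bases shared with *GDF1*, the longest of 763 bases, whereas *CERS2*, *CERS4*, *CERS5* and *CERS6* shared no such run with another gene.

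Earlier steps of ceramide synthesis split between the libraries. *SPTLC2*, a catalytic subunit of serine palmitoyltransferase (chromosome 7, 139624355 to 139732929), was at 388 TPM in Rep1 and at 42.9 TPM in Rep2, on at least 219 and 416 reads. Its log2 difference was 3.15 as deposited, 4.32 after the median of ratios and 5.61 after scaling to the oligodendrocyte markers. Its partner *SPTLC1* was at 9.78 TPM in Rep1 and at 59.3 TPM in Rep2, on at least 4 and 417 reads. *SPTLC3*, an alternative catalytic subunit, was at 6.12 and 32.8 TPM, on at least 1 and 92 reads. *SPTLC2* was therefore 39.7 times *SPTLC1* in Rep1 and 0.724 times *SPTLC1* in Rep2, a ratio that scaling of a library cannot change. On the mean they were 1.38 SDs of a single library apart. *SPTSSA*, a small subunit of the same complex, went with *SPTLC2*, at 65.8 TPM in Rep1 and at 21.8 TPM in Rep2. The next enzymes went the other way. *KDSR*, the reductase that follows, was at 3.10 TPM in Rep1 and at 69.9 TPM in Rep2, and *DEGS1*, the desaturase that completes ceramide, at 3.10 TPM and 146 TPM, with a log2 difference of -5.17, the lowest of the 43 genes, which was still -4.11 and -3.03 under the other scalings. In Rep1 *KDSR* rested on at least 1 read and *DEGS1* on at least 3. The related *DEGS2* was listed at 0 in Rep1 and at 2.39 TPM in Rep2, and *DEGS1* was above it by 2.67 SDs of a single library. Over the 12 ceramide synthesis genes, 8 were at least 2-fold lower and 2 at least 2-fold higher in Rep1, with a median of -1.79 as deposited, -1.12 after the median of ratios and -0.05 after scaling to the oligodendrocyte markers.

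*ELOVL1*, the elongase that supplies very long chain fatty acids to *CERS2*, was at 32.1 TPM in Rep1 and at 87.9 TPM in Rep2 (60.0 ± 39.5 TPM, SD, n = 2). *ELOVL7*, another elongase, was listed at 0 in Rep1 and at 0.828 TPM in Rep2, and lay 4.53 SDs of a single library below *ELOVL1*.

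**Figure D3:**
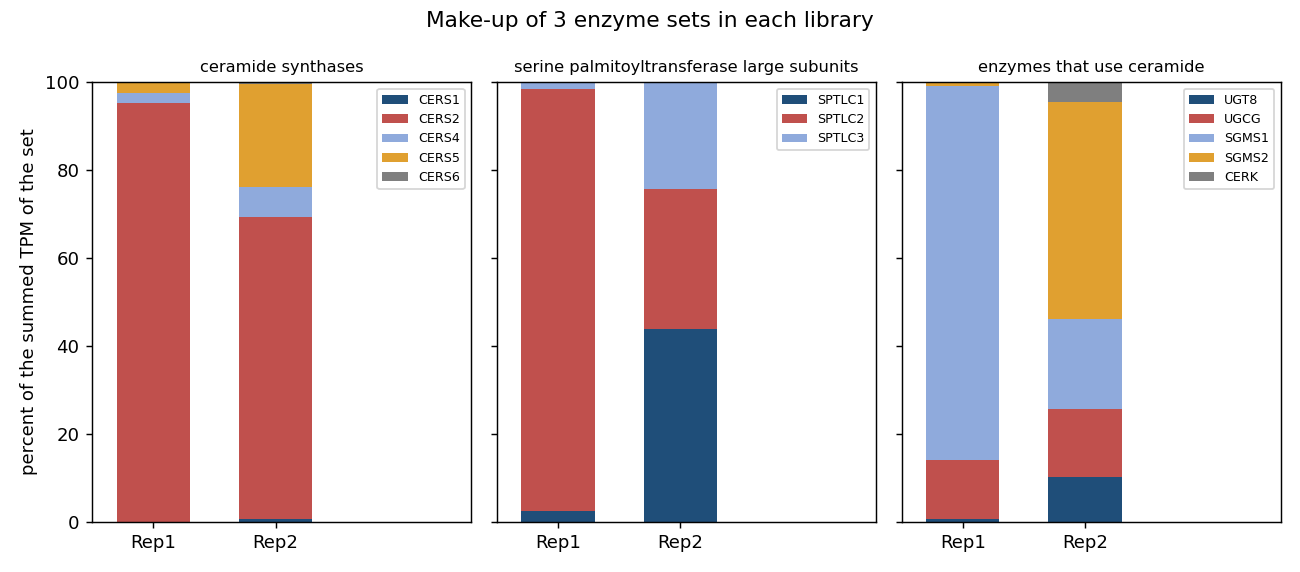
Share of each gene in the summed TPM of its set, in percent on the vertical axis, for the ceramide synthases, the large subunits of serine palmitoyltransferase and 5 enzymes that use ceramide, in Rep1 and Rep2. *CERS2* has the largest share of its set in both libraries, whereas *SPTLC2* and *SGMS1* hold 96.1% and 85.2% of theirs in Rep1 and 31.8% and 20.4% in Rep2.

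At the branch point, the enzymes that draw on ceramide stood in a different order in each library. *SGMS1*, the sphingomyelin synthase of the Golgi (chromosome 9, 87333870 to 87647008), was the most abundant member in Rep1 at 679 TPM, on at least 430 reads, and was at 49.4 TPM in Rep2, on at least 537. Its log2 difference of 3.76, the highest of the 43 genes, was 4.93 after the median of ratios and 6.22 after scaling to the oligodendrocyte markers. *SGMS2*, the related synthase found mainly at the plasma membrane, was at 5.10 TPM in Rep1 and at 119.8 TPM in Rep2, with log2 differences of -4.31, -3.20 and -2.05 under the same scalings. The ratio of *SGMS1* to *SGMS2* was thus 133 in Rep1 and 0.412 in Rep2. The value of *SGMS2* rested on at least 3 reads in Rep1 and 1211 in Rep2. *UGCG*, which adds glucose to ceramide, was at 107 TPM in Rep1 and at 38.0 TPM in Rep2, so that it exceeded *UGT8*, which adds galactose, 22.1-fold in Rep1 and 1.55-fold in Rep2. *CERK*, the ceramide kinase, was lowest of these enzymes in both libraries, at 1.13 and 10.9 TPM, on at least 1 and 167 reads. Of the summed TPM of these 5 genes, *UGT8* took 0.607% in Rep1 and 10.1% in Rep2, and *SGMS2* took 0.639% and 49.4%. On the mean *SGMS1* was above *SGMS2* by 1.65 SDs and above *UGT8* by 2.27 SDs of a single library, and *UGCG* was above *UGT8* by 1.48 SDs, of which only the pair of *SGMS1* and *SGMS2* changed places between the libraries.

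Sphingomyelin is cleaved back to ceramide by sphingomyelinases. *SMPD1*, the acid lysosomal enzyme, differed by less than 2-fold between the libraries, with 9.23 TPM in Rep1 against 12.9 TPM in Rep2 (11.0 ± 2.57 TPM, SD, n = 2). This held as deposited, where its log2 difference was -0.44, which turned to 0.65 after the median of ratios and 1.91 after scaling to the oligodendrocyte markers. *SMPD2*, a neutral enzyme, was at 8.06 and 49.9 TPM, *SMPD4*, another neutral enzyme, at 2.53 and 11.7 TPM, and *SMPD3*, a neutral enzyme well known from neurons, at 3.31 TPM in Rep1 and at 0.770 TPM in Rep2 on at least 1 and 4 reads. *SMPD2* and *SMPD1* were 0.506 SDs of a single library apart. Over the 6 sphingomyelin genes, 3 were at least 2-fold lower and 2 at least 2-fold higher in Rep1, with a median of -1.14 that became -0.10 after the median of ratios and 1.07 after scaling to the oligodendrocyte markers. Since 24.5% of the *SMPD2* transcript was shared with *PPIL6*, a gene on the opposite strand, and the strand setting of the counting is not given in the sources used here, reads of these genes cannot be told apart.

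Beyond glucosylceramide, *ST3GAL5*, which makes the ganglioside GM3, was at 14.5 TPM in Rep1 and at 45.8 TPM in Rep2 (30.2 ± 22.1 TPM, SD, n = 2). *B4GALNT1*, which extends gangliosides further, was listed at 0 in Rep1 and at 3.92 TPM in Rep2, 2.36 SDs of a single library below *ST3GAL5*, and 17.3% of its transcript was shared with *SLC26A10* on the opposite strand.

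Lysosomal breakdown held the 2 most abundant transcripts of the whole set in Rep2, and all 8 of its genes were lower in Rep1 as deposited. *PSAP*, the precursor of the saposins that present sphingolipids to their hydrolases, lies on chromosome 9 from 65924117 to 65958720. It was at 164 TPM in Rep1 and at 716 TPM in Rep2, on at least 283 and 21181 reads, with a mean of 440.1 ± 390.0 TPM (SD, n = 2) at percentile 97.8, the highest of the 43. *ASAH1*, the acid ceramidase, was at 86.0 TPM and 331 TPM (208 ± 173 TPM, SD, n = 2), and *GLB1*, the lysosomal beta-galactosidase, at 39.6 TPM and 172 TPM (106 ± 93.5 TPM, SD, n = 2). These 3 genes stood in the same order in both libraries and were 0.580 (*PSAP* and *ASAH1*) and 0.619 SDs (*ASAH1* and *GLB1*) of a single library apart.

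The lysosomal enzymes that act on myelin galactolipids were less abundant. *GALC*, the galactosylceramidase lost in Krabbe disease, was at 1.38 TPM in Rep1 and at 28.5 TPM in Rep2, on at least 1 and 355 reads. *ARSA*, the arylsulfatase that removes the sulfate of sulfatide and is lost in metachromatic leukodystrophy, was at 0.531 TPM and 16.9 TPM, on at least 1 and 546 reads. On the mean *GALC* and *ARSA* were 0.351 SDs of a single library apart. *GM2A*, the activator of ganglioside GM2 breakdown, was at 3.07 and 58.6 TPM, again on at least 1 read in Rep1, and *HEXA*, the hexosaminidase subunit lost in Tay-Sachs disease, at 40.9 and 77.8 TPM. *NEU1*, the lysosomal sialidase with the TCACGTG match, was at 3.38 and 15.6 TPM.

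The 8 lysosomal genes had a median log2 difference of -2.10, and 7 of them were at least 2-fold lower in Rep1. This compares with a median of -1.96 for 13 other lysosomal genes, of which 10 were at least 2-fold lower and 1 was at least 2-fold higher. After the median of ratios the median of the 8 was -0.92, with *HEXA* above 0 at 0.26, and after scaling to the oligodendrocyte markers it was 0.29, with only *GALC* (-1.78), *ARSA* (-2.19) and *GM2A* (-1.73) below 0.

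Ceramidases outside the lysosome were represented mainly by *ACER3*, an alkaline ceramidase, at 52.0 TPM in Rep1 and at 61.2 TPM in Rep2 (56.6 ± 6.55 TPM, SD, n = 2). Its log2 difference of -0.23 turned to 0.94 after the median of ratios and 2.21 after scaling to the oligodendrocyte markers. *ACER2*, the alkaline ceramidase of the Golgi, was at 2.66 and 0.659 TPM, and *ASAH2*, the neutral ceramidase, was listed at 0 in Rep1 and at 0.0836 TPM in Rep2, the lowest member. *ACER3* exceeded *ACER2* by 2.95 SDs of a single library in the same order in both libraries, whereas *ASAH1* and *ACER3* were 0.985 SDs apart.

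Sphingosine released by ceramidases is phosphorylated to sphingosine 1-phosphate, a signal read by cell surface receptors. *SPHK1*, a sphingosine kinase, was at 4.39 TPM in Rep1 and at 51.4 TPM in Rep2, and *SPHK2* at 0.504 and 3.52 TPM, with *SPHK1* higher by 1.70 SDs of a single library and in both libraries. The lyase *SGPL1*, which ends the pathway, was at 24.8 TPM in Rep1 and at 18.8 TPM in Rep2 (21.8 ± 4.27 TPM, SD, n = 2), with a log2 difference of 0.38 as deposited, 1.52 after the median of ratios and 2.80 after scaling to the oligodendrocyte markers. The values of *SGPL1* rested on at least 1 read in Rep1 and 13 in Rep2. The phosphatase *SGPP1*, which returns sphingosine, was listed at 0 in Rep1 with 7.57 TPM in Rep2. *S1PR5*, the sphingosine 1-phosphate receptor typical of oligodendrocytes, was at 11.1 TPM in Rep1 and at 36.1 TPM in Rep2, on at least 24 and 1343 reads (23.6 ± 17.7 TPM, SD, n = 2). Its log2 difference of -1.62 became -0.49 after the median of ratios and 0.74 after scaling to the oligodendrocyte markers. On the mean *SPHK1* was 0.273 SDs of a single library from *SGPL1* and 0.208 from *S1PR5*. Of the 6 genes of ceramide and sphingosine phosphates, 5 were at least 2-fold lower in Rep1, with a median of -2.05 that became -1.26 after the median of ratios and -0.49 after scaling to the oligodendrocyte markers.

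Few steps in the order of levels were larger than the replicate spread. When the 43 genes were ranked by mean TPM, 41 of the 42 neighbouring pairs were less than 1 SD of a single library apart, and the exception was *GLB1* above *DEGS1* by 1.07 SDs. Ranking 43 genes places neighbours close together, so this count depends largely on how densely the list is spaced. It was not made for other lists of this size. The SD also contains the shift between the libraries. Of the 42 pairs, 9 stood in the same order in both libraries. For 22 of the 43 genes the SD over the libraries was at least as large as the mean. With so few libraries this SD only restates how far apart they lay. The same was not counted over all genes, so no share can be set beside the 22.

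**Figure D4:**
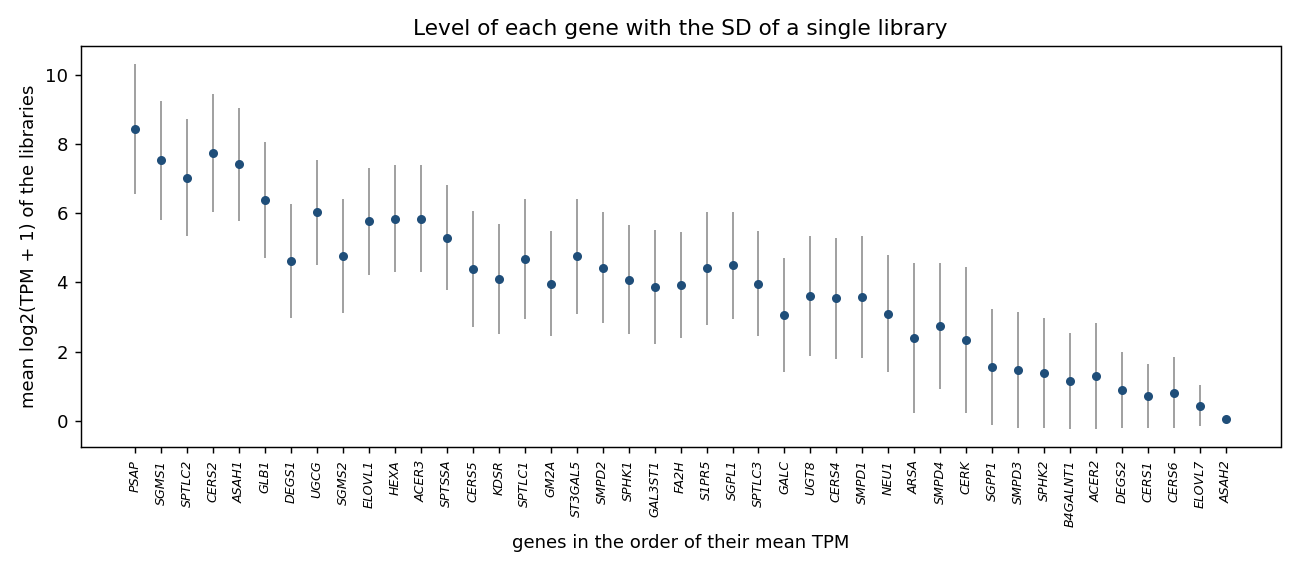
Mean log2(TPM + 1) of the 2 libraries on the vertical axis for the 43 genes in the order of their mean TPM, with bars for the SD of a single library, taken from the 200 genes closest in level. The bars of neighbouring genes overlap throughout, so that the figure separates the genes at the left, such as *PSAP* and *CERS2*, from those at the right, such as *CERS6*, but not neighbours.

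Other genes of the pathway, taken from a list of receptors, transporters, regulators and enzymes outside the 43, are given by counts. Of 45 listed, 39 were above 0 in at least 1 library. In Rep1, 22 of the 39 were at least 2-fold lower and 6 at least 2-fold higher, beside 51.3% and 14.8% of all genes. The median of the 39 was -1.27, which became -0.82 after the median of ratios and -0.04 after scaling to the oligodendrocyte markers. *CERS3*, *ENPP7*, *ST8SIA5*, *S1PR4*, *CYP4F22* and *SMPDL3B* were listed at 0 in both libraries. Among the highest mean levels were those of *CTSA*, which protects lysosomal *NEU1* and *GLB1* (484 TPM in Rep1 and 223 TPM in Rep2), *TECR*, which completes each round of fatty acid elongation (60.9 and 246 TPM), the glycolipid transfer protein *GLTP* (27.5 and 174 TPM) and *ALDH3A2*, which clears fatty aldehydes formed by *SGPL1* (4.88 and 191 TPM). *CTSA* is also in the list of other lysosomal genes.

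Transcript length and base composition were also compared with those of all listed genes. Their longest annotated mRNAs had a median of 2836 bases against 2934 over the 16684 listed genes, and a GC content of 50.9% against 49.96%. The members lie on 18 chromosomes. Of them, 13 overlap an annotated gene on the opposite strand and 7 overlap one on the same strand. At least 1 run of 50 bases or more is shared with a transcript of another gene by 16 members. Overlaps and shared runs were not counted over all listed genes, so no share can be set beside them. *UGT8*, *FA2H*, *GAL3ST1*, *CERS2*, *SGMS1* and *PSAP* share no such run, but *UGT8*, *SGMS1* and *PSAP* overlap an annotated gene on the same strand.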

How the data were processed

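Total RNA was extracted from macaque optic nerve, and 2 libraries made from it with a SMARTer v4 ultra-low-input kit were sequenced. Reads were trimmed by the authors with Trim Galore 0.6.6, aligned to Mmul_10 with STAR 2.7.1a and counted with featureCounts 1.5.3, and the counts were converted to the deposited TPM values, which sum to 1000000 per library. Gene lengths, strand setting and multi-mapping are not given in the sources used here. The columns Rep1 and Rep2 could not be tied to sample titles and were used as replicates of 1 group, so the spread may be technical. Read totals are unknown, and no interval or detection limit per gene can be given.

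All 16684 symbols were matched in the RefSeq annotation of Mmul_10. Calculations used Python 3.11 (pandas 2.3.3, scipy 1.17.1, numpy 2.4.6), with levels as deposited or as log2(TPM + 1), which understates the change of low genes. No filter on low values was applied to the main results and no test across genes was run. The constant that links the libraries gave whole read numbers for 99.9% of 10168 genes with a tolerance of 1e-12, and for 5.97% when changed by 1 part in 10000. Shared runs were found with blastn 2.17.0. The steps across genes were tested on simulated data. Alternatives were a pseudocount of 0.1, other scalings, averages, gene sets and SDs, and each library alone. Every member was named, and of the other pathway genes those at 0 in both libraries and the 5 highest, of which 1 is not reported here. The members, lists and alternatives were chosen with earlier results of these data known. The lipidomic, mouse and human experiments were not analysed here.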

Additional observations from a re-analysis of the deposited data

How the results depend on the processing

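No paired analysis was possible because every library belongs to the same condition, and leaving out a library gives no difference between libraries. Of 442 values under alternatives that kept both libraries, 350 moved by no more than the spread set for them. These include the geometric mean of each gene, which cannot leave that spread, so its result was fixed in advance. For log2 differences the spread was set in proportion to the difference itself. The 350 are therefore no measure of stability. Most changes of sign came with Rep1 scaled to the oligodendrocyte markers. Under that scaling the median log2 difference was 0.12 over all members, 0.066 for elongation, 1.07 for sphingomyelin, 0.80 for glucosylceramide and gangliosides, 0.29 for lysosomal breakdown and 2.21 for the non-lysosomal ceramidases. Single genes reached 0.042 (*SPTLC3*), 0.44 (*CERS4*), 1.003 (*ELOVL1*), 0.12 (*UGT8*), 0.24 (*SMPD4*), 0.80 (*ST3GAL5*), 0.34 (*PSAP*), 0.52 (*ASAH1*), 0.34 (*GLB1*), 0.24 (*NEU1*), 0.74 (*S1PR5*), 0.62 (*CERS6*), 1.91 (*SMPD1*), 1.52 (*HEXA*) and 2.21 (*ACER3*), all below 0 as deposited, since this scaling multiplies Rep1 by 5.52. The median of ratios also turned *SMPD1* (0.65), *HEXA* (0.26), *ACER3* (0.94) and the median of the non-lysosomal ceramidases (0.94, and 0.46 once means under 1 TPM were left out), and leaving out the 10 most abundant genes turned *CERS2* (-0.16). The oligodendrocyte scaling left 14 members at least 2-fold lower and 12 higher in Rep1 (22.8% and 37.5% of all genes), and the median of ratios left 19 lower (33.8% of all genes). Counting only values of at least 1 TPM as detected put 4 members below detection in Rep2 and 9 in Rep1, and the same was not counted over all genes. With a pseudocount of 0.1, 31 members were lower (63.5% of all genes) and 6 higher (16.3%), and leaving out means under 1 TPM gave 28 lower (58.7%) and 6 higher (18.2%). Without the 10 most abundant genes 31 were lower and 6 higher, with no count over all genes made for this setting. With 500 nearest genes 41 neighbouring pairs stayed under 1 SD apart, and 40 once the mean difference of those genes was subtracted first. Each library alone lies at a fixed number of SDs from the mean of both, so its 86 values say nothing about stability. Read numbers are lower bounds, and for 15 members that bound was 3 reads or fewer in Rep1.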
